A study of Mus musculus with 8 samples.

Results

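The aminoacyl-tRNA synthetases are the enzymes that join each amino acid to its transfer RNA, and 38 genes of this family were followed here in mouse mammary basal cells in G0 and in G1. Members were chosen by gene name, from GENCODE M21 symbols matched to the Ensembl gene IDs of the count table, and no expression value enters that rule, although the family was picked for study with earlier results of these data known. They are 20 cytosolic synthetases, 16 mitochondrial synthetases and the scaffold genes Aimp1 and Aimp2, which makes 38 of the 54837 gene IDs in the table. All 38 had enough reads to be tested, with between 9 (Pars2) and 83394 (Lars2) reads for a gene in a library and a median of 535.

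The study asked which genes differ in expression between resting (G0) basal cells and basal cells in G1. Cells from the mammary gland of untreated mice, whose strain the labels give as C57BL/B6, were sorted into the phases, and polyadenylated RNA was sequenced with the Illumina TruSeq stranded kit. Each of 4 runs gave 1 G0 library and 1 G1 library, so there were 4 libraries per phase and 8 in all. No allele, transgene or agent is named for either phase. For the animals' age, the sorting markers, any pooling of animals and what a run is, the sources used here give nothing. The p-values therefore speak only of the spread among these 8 libraries, part of which may be technical.

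Cells keep separate sets of synthetases for translation in the cytosol and in the mitochondrion, and both sets are encoded in the nucleus. In mice, Gars and Kars encode both the cytosolic and the mitochondrial enzyme, and Eprs charges both glutamate and proline. In the cytosol, several synthetases are held in the multisynthetase complex by the scaffold proteins that Aimp1, Aimp2 and Eef1e1 encode. Uncharged transfer RNA activates the kinase GCN2, which raises translation of the transcription factor ATF4, and many cytosolic synthetase genes are known ATF4 targets.

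Total counts were 5868728 to 15014104 per library. Basal markers fitted the label: mean Krt14 was 7999 ± 986 CPM (counts scaled to the library total, with TMM factors) in G0 and 8270 ± 1030 in G1 (SD, n = 4). The summed level of 8 basal markers was 18963 to 23329 CPM in G0 and 25355 to 29156 in G1. Of the 8, Acta2 (7926 ± 1420 CPM in G0 and 12213 ± 2190 in G1) and Cnn1 were called higher in G1 with the run as a block in edgeR, and Krt14 was not. The summed level of 12 endothelial markers was 184 to 341 CPM in G0 and 41.7 to 150 in G1, and no marker of another cell type was at 0 in all 8 libraries. In the same model 11 of these 12 were called lower in G1, against 0.764% of all genes. So were 4 of 7 fibroblast markers and 1 of 2 adipocyte markers tested, and no luminal, immune or pericyte marker was called. Summed fibroblast levels overlapped, at 207 to 884 CPM in G0 and 242 to 603 in G1, and Dcn was higher in G1 without a call. In bulk RNA, fewer cells of a type and less RNA per cell cannot be told apart, and the part of these shifts in the results on synthetases was not tested. The G0 library of run 4 held reads from 39094 genes, against 20836 to 26614 in the others, and the repeat-derived transcript Gm10800 took 8.13% of its counts.

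The promoters are shown first because many cytosolic synthetase genes are known ATF4 targets. Binding of ATF4 was not measured here. RefSeq (GRCm38.p6) gave a window from 250 bases before to 50 bases after the start for 29 of the 38 members. The C/EBP-ATF element TGATGNAA, searched on both strands, lay in the windows of 5 of 13 cytosolic genes (38.5%), of 0 of 14 mitochondrial genes and of neither scaffold gene, and in 4.26% of 20587 genes. The 5 genes were Aars, which held it at 2 places, Gars, Iars, Tars and Yars. The stretches that hold it are given 5′ to 3′ on the strand of the gene, with the element in capitals (TGATG read on the opposite strand is CATCA).
Aars, chr8:111033700-111033767 (+): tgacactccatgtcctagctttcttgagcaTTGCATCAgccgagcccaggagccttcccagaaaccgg
Aars, chr8:111033821-111033858 (+): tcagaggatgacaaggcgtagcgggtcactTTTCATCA
Gars, chr6:55037941-55038000 (+): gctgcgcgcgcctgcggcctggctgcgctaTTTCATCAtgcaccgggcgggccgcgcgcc
Iars, chr13:49682107-49682144 (+): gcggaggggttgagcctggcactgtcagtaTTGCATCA
Tars, chr15:11399659-11399703 (-): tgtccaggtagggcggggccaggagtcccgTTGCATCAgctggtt
Yars, chr4:129189876-129189913 (+): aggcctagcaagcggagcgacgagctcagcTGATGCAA
Of the 6 matches, 5 were on the strand opposite to the gene, and Yars held the element on its own strand. The E-box CACGTG, which reads the same on both strands, lay in the windows of 4 cytosolic genes (30.8%; Aars, Farsb, Iars and Tars) and of 1 mitochondrial gene (7.14%; Ears2), against 8.65% of the 20587 genes. A match is a description of these letters and shows no binding.

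The median level per length was higher in the cytosolic set than in the mitochondrial set in every library. Single genes of the sets overlapped: Lars2 lay above every cytosolic gene, and mean Yars2 (14.9 CPM per kilobase) above Lars and Iars (12.8 each). The median over cytosolic genes was 27.3 to 35.3 CPM per kilobase of the longest coding transcript, and the median over mitochondrial genes was 3.72 to 7.80, against 6.06 to 6.38 over all 15192 genes tested. The ratio of the cytosolic to the mitochondrial median was 4.27 to 4.59 in the 6 libraries of runs 1, 2 and 4, and 8.44 in G0 and 7.77 in G1 of run 3. Of 17 pairs of a cytosolic and a mitochondrial enzyme for the same amino acid, the cytosolic gene had the higher level per length in all 8 libraries in 16. The exception was the leucine pair, in which Lars was below Lars2 in all 8.

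Among cytosolic genes Nars, the asparagine enzyme, had the highest mean level per length at 92.7 ± 20.1 CPM per kilobase (SD over 8 libraries), above 94.2% of genes tested. Eprs followed at 49.9 ± 7.08, with Farsa at 49.1 ± 7.31 and Vars at 49.1 ± 4.94, and these 3 did not differ beyond their spread. The lowest were Lars at 12.8 ± 1.68, Iars at 12.8 ± 1.24 and Qars at 19.0 ± 3.70, whose products charge leucine, isoleucine and glutamine. Apart from Lars2, the mitochondrial genes were led by Yars2 at 14.9 ± 4.51 and Cars2 at 11.6 ± 1.55, the tyrosine and cysteine enzymes. The lowest were Wars2 at 1.81 ± 0.629, Mars2 at 1.64 ± 0.407 and Pars2 at 0.906 ± 0.380, the enzymes for tryptophan, methionine and proline. The Mars2 value divides by an annotated transcript of 11294 nt. Within pairs, the nearest levels were those of Iars and Iars2, with a median ratio of 1.60 (1.41 to 2.08 over libraries), and of Cars and Cars2, with 1.82 (1.08 to 2.29). Among the 16 pairs with the cytosolic gene higher, the widest ratio was that of Eprs to Pars2, with a median of 54.3. Of the scaffold genes, Aimp2 stood at 65.1 ± 29.0 CPM per kilobase and Aimp1 at 26.4 ± 5.31.

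**Figure D1:**
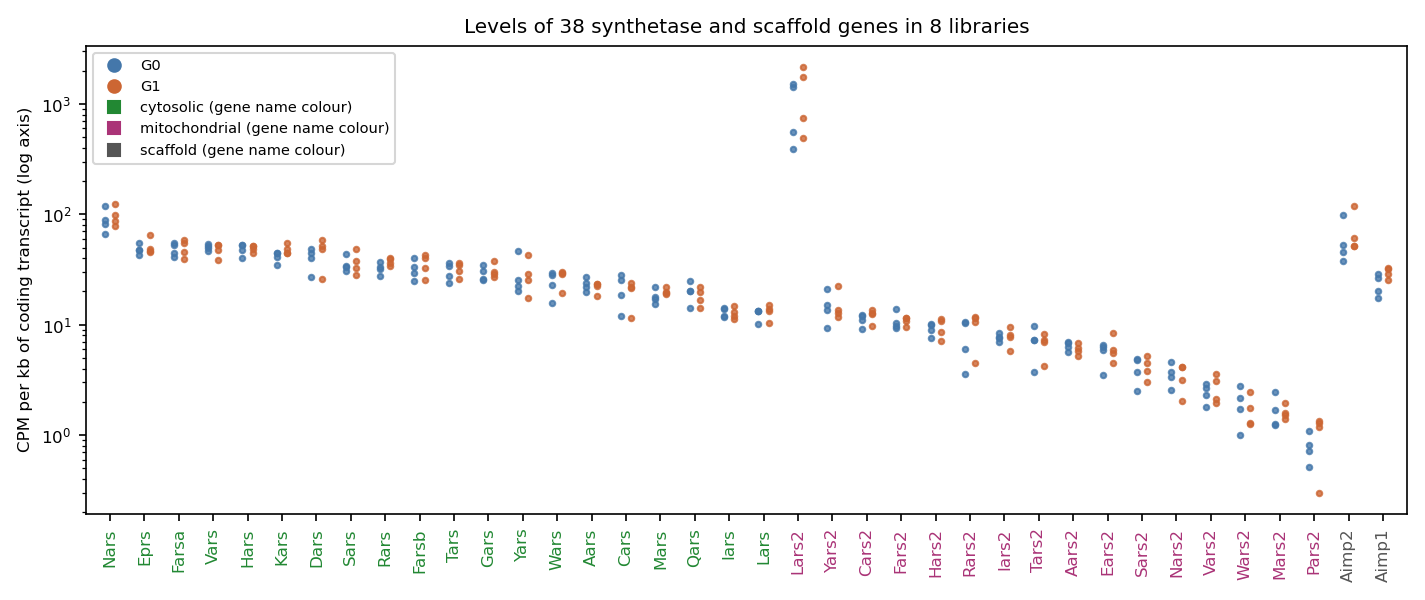
Level of each of the 38 genes, in CPM per kilobase of coding transcript on a log axis, with 1 point per library (G0 blue, G1 orange) and gene names coloured by set. Lars2 lies above every other member in all 8 libraries, at 391 to 2169, and the G0 and G1 points of every gene overlap.

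Few differences between G1 and G0 were called among the synthetases. With phase alone in the model, no member was called by edgeR's quasi-likelihood test with Benjamini-Hochberg adjustment, as was true of all 15192 genes (0.0% called higher and 0.0% lower), and 0 of 38 had an unadjusted p under 0.05 against 2.80% of all genes. With the run as a block in the model, which compares G1 and G0 within runs, 1 member was called higher in G1, Lars2, against 0.481% of all genes, and none was called lower, against 0.764%. In that model 3 members (Lars2, Aimp1 and Aimp2) had an unadjusted p under 0.05, or 3 of 38, against 12.3% of all genes. No member had G0 and G1 libraries that did not overlap, against 0.829% of all genes higher and 1.17% lower in G1. The share of members higher in G1 in all 4 runs was 9 of 38 against 11.3% of all genes, and the share lower in all 4 was 0 of 38 against 9.44%.

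None of the 20 cytosolic enzymes was called. With the run as a block, 15 of 20 log2 fold changes were above 0, with a median of 0.06 and a range of -0.13 to 0.23, beside a median of 0.01 over all genes tested. The 95% intervals of the 20 genes lay between -0.40 (Qars) and 0.46 (Kars), that is, between 0.758-fold and 1.38-fold. Those intervals bound each gene separately and leave smaller differences undecided. By run, the median ratio was 0.04, -0.01, 0.07 and 0.23 on the log2 scale in runs 1 to 4, so run 4 stood highest, with 17 of 20 genes higher in G1. Without run 4 the blocked median was -0.02, and without each of the other runs it was 0.07 to 0.10. Every run 4 ratio here and below rests on the G0 library with 39094 genes detected and 8.13% of its counts in Gm10800. The part of that library's make-up in these ratios was not tested. By catalytic class, the folds into which the synthetases divide, the median was 0.00 over 9 class I enzymes, with 5 above 0, and 0.07 over 10 class II enzymes, with 9 above 0. Eprs, which joins an enzyme of each class, was left out of both, and the difference between the classes was not tested.

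Kars, the lysine enzyme and a member of the complex, had the smallest p among cytosolic genes. It lies at chr8:111993443-112011323 (GRCm38, GENCODE M21). Adjusted p-values from here on are from the model with the run as a block unless another is named. Its level was 97.2, 89.7, 76.4 and 98.1 CPM in G0 of runs 1 to 4 and 105, 97.7, 98.5 and 121 CPM in G1. Every run was higher in G1, but the phases overlapped, and the log2 difference of 0.23 ± 0.12 (SE) was not called (edgeR with the run block, adjusted p = 0.442). The arginine enzyme Rars was also higher in 4 of 4 runs, with a log2 difference of 0.20 ± 0.12 and an edgeR adjusted p of 0.539. The aspartate enzyme Dars was higher in 3 of 4 runs (0.19 ± 0.12, edgeR adjusted p = 0.546). For Wars, the tryptophan enzyme, the difference was 0.17 ± 0.12 (edgeR adjusted p = 0.632), and for Mars, the methionine enzyme, 0.15 ± 0.13 (edgeR adjusted p = 0.698). Mars overlaps Ddit3 on the opposite strand, and the sources used here do not say whether reads were counted by strand. Farsb and Lars completed the 5 cytosolic genes that were higher in all 4 runs, although Lars differed by 0.00 and 0.01 on the log2 scale in runs 4 and 3. Gars, which serves both compartments, had a log2 difference of 0.08 ± 0.12 (edgeR adjusted p = 0.850).

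The scaffold genes had larger estimates than most enzymes, and neither was called. Aimp1 (chr3:132660499-132684370) encodes the complex protein that is also known as the precursor of the cytokine EMAP II. Its level was 32.6, 23.0, 29.6 and 19.5 CPM in G0 of runs 1 to 4 and 36.1, 28.8, 36.5 and 32.1 CPM in G1. The lowest values were the G0 libraries of runs 4 and 2, and the phases overlapped. The log2 difference was 0.36 ± 0.15, with an adjusted p of 0.298 in edgeR with the run block. Aimp2 (chr5:143902704-143909847), which encodes the core scaffold, had 63.0, 54.2, 118 and 44.3 CPM in G0 and 72.3, 60.6, 143 and 61.7 CPM in G1. Both libraries of run 3 were above all others, and each G1 library was above its own G0 library. The difference was 0.27 ± 0.12 (edgeR with the run block, adjusted p = 0.349). Aimp1 overlaps Tbck and Aimp2 overlaps Eif2ak1, each on the opposite strand. Over the 10 genes of the complex (8 synthetases and both scaffolds), the blocked median was 0.17 against 0.01 over all genes, and 8 were above 0, as were 7770 of all 15192 genes. Higher in all 4 runs were 5 of the 10 against 11.3% of all genes, and these 5 include Lars with its ratios of 0.01 and 0.00. The third scaffold gene, Eef1e1, had a difference of 0.25 ± 0.13 (edgeR with the run block, adjusted p = 0.438).

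**Figure D2:**
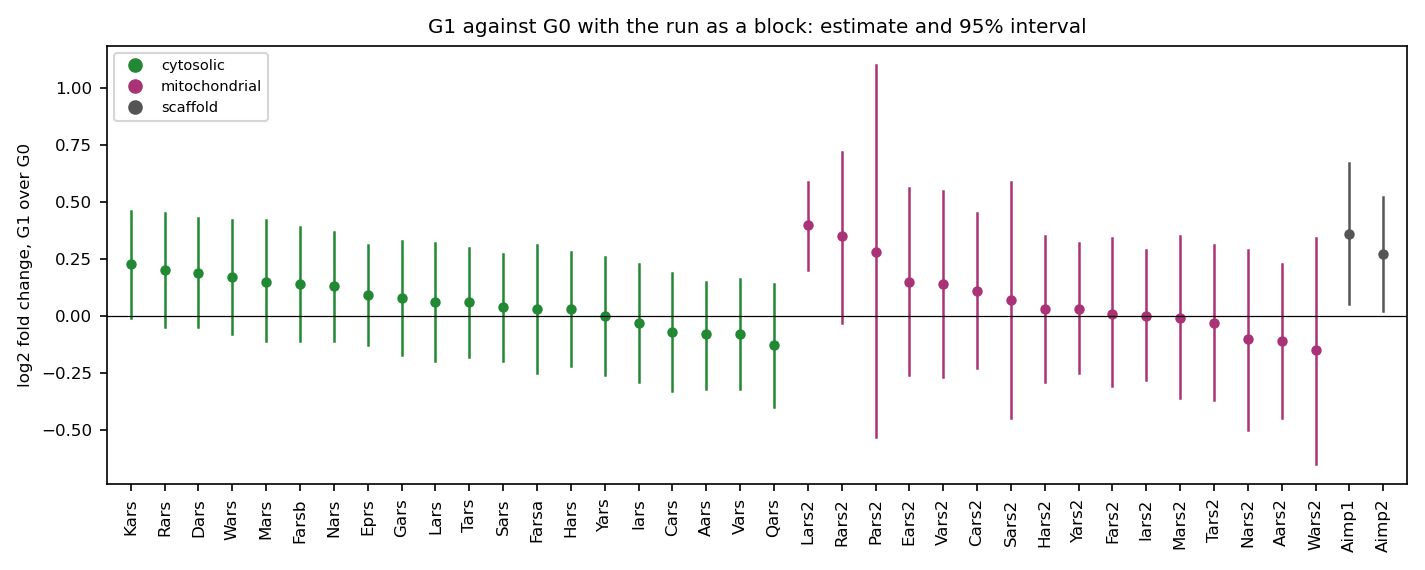
log2 fold change of G1 over G0 with the run as a block, with 95% intervals (vertical lines), for each gene, coloured by set. The intervals of Lars2 (0.20 to 0.59), Aimp1 (0.05 to 0.67) and Aimp2 (0.02 to 0.52) lie above 0 before adjustment, and the other 35 cross it.

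The mitochondrial enzymes other than Lars2 showed no called difference. Over all 16 the blocked median was 0.03, with 11 above 0, and over the 15 without Lars2 it was 0.03, with 10 above 0. By run the median ratio of the 16 was 0.14, 0.03, 0.04 and 0.16 on the log2 scale. Apart from Lars2 and the sparsely counted Pars2, the 95% intervals ran from -0.65 to 0.72, or 0.637-fold to 1.65-fold, which is wider than for the cytosolic genes. Rars2, the arginine enzyme, was higher in G1 in 4 of 4 runs, with 19.7, 19.4, 6.71 and 11.3 CPM in G0 and 21.6, 22.1, 8.47 and 19.9 CPM in G1. The largest of its ratios was in run 4, and the difference of 0.35 ± 0.18 was not called (edgeR with the run block, adjusted p = 0.453). Pars2 had 14 to 37 reads in G0 libraries and 9 to 58 in G1 libraries, with a log2 difference of 0.28 ± 0.40 (edgeR with the run block, adjusted p = 0.842). That estimate was 0.05 without run 1 and 0.55 without run 3.

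**Figure D3:**
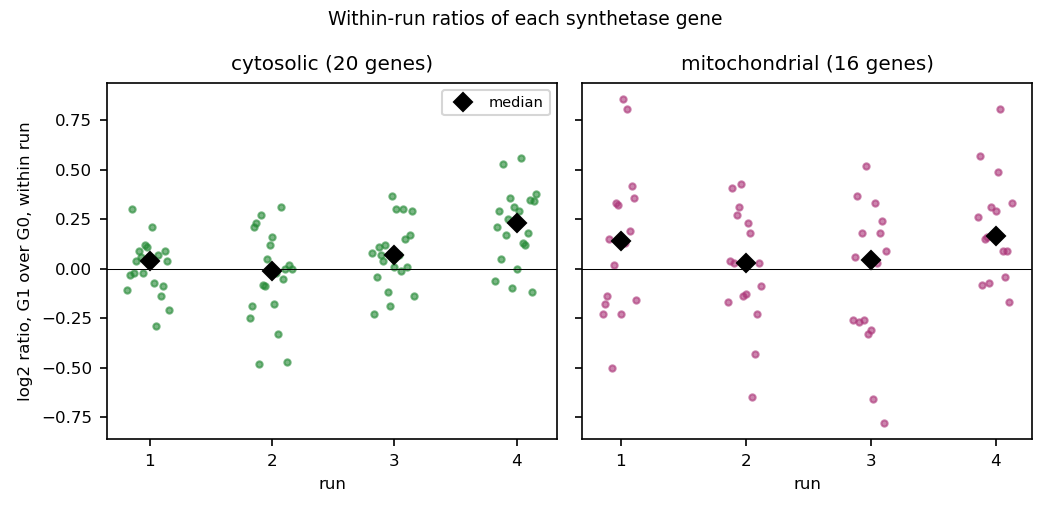
log2 ratio of G1 over G0 within each run, with 1 point per gene and the median as a diamond, for the 20 cytosolic and 16 mitochondrial genes. Cytosolic medians are -0.01 to 0.07 in runs 1 to 3 and 0.23 in run 4, and mitochondrial points spread more widely than cytosolic ones.

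Lars2, the mitochondrial leucine enzyme (ENSMUSG00000035202, chr9:123366927-123462666, plus strand), was the only member called, and only with the run in the model. Its level was 1523, 2175, 5893 and 5548 CPM in G0 of runs 1 to 4 and 1913, 2925, 8444 and 6858 CPM in G1. Runs 3 and 4 were high in both phases, so the means, 3785 ± 2260 CPM in G0 and 5035 ± 3120 in G1 (SD, n = 4), overlapped widely. Within runs, the log2 ratios were 0.33, 0.43, 0.52 and 0.31, all above 0. With the run block the log2 difference was 0.40 ± 0.10, or 1.32-fold (95% interval 1.15 to 1.51), and the edgeR adjusted p was 0.0359. With phase alone it was 0.41 ± 0.55 and not called (edgeR, unadjusted p = 0.473), and it ranged from 0.05 without the G1 library of run 3 to 0.71 without the G0 library of run 3. The call ended when any 1 run was left out of the block model, with log2 differences of 0.35 to 0.42 and edgeR adjusted p of 0.0552 (without run 4), 0.0954 (without run 1), 0.0963 (without run 3) and 0.113 (without run 2).

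Lars2 had the highest level of the family. At 1132 ± 669 CPM per kilobase (SD over 8 libraries) it was above 99.7% of genes tested and ranked 38 among them, whereas its cytosolic partner Lars had 12.8 ± 1.68. The ratio of Lars to Lars2 was 0.00474 to 0.0339 over libraries. Among the counted gene IDs with a GENCODE M21 symbol, no other gene overlaps Lars2. No coding transcript of it shared 100 nt or more at 95% identity with a GENCODE M21 transcript of another gene. That search left out shorter stretches and sequence outside the annotated transcripts, so it cannot show where the Lars2 reads come from. As with Lars2, the highest value within each phase of Gm42418, a noncoding RNA gene known for covering ribosomal RNA sequence, was in run 3 and the next in run 4. It had 861, 840, 3528 and 2315 CPM in G0 and 1024, 869, 5188 and 2410 CPM in G1. The mitochondrial 16S ribosomal RNA gene mt-Rnr2 had 2816, 1146, 8318 and 2015 CPM in G0 and 3479, 2149, 6753 and 3304 CPM in G1. Both were chosen after their values were seen. Their phase differences were 0.23 ± 0.10 and 0.41 ± 0.17 on the log2 scale and were not called (edgeR with the run block, adjusted p = 0.371 and 0.365). Their part in the Lars2 result was not tested. The 100 bases before the annotated start of Lars2 (chr9:123366827-123366926, plus strand, RefSeq, GRCm38.p6) hold neither TGATGNAA nor CACGTG and are shown because Lars2 carries the phase call.
Lars2: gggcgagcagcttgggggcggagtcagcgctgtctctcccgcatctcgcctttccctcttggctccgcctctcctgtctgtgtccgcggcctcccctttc

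**Figure D4:**
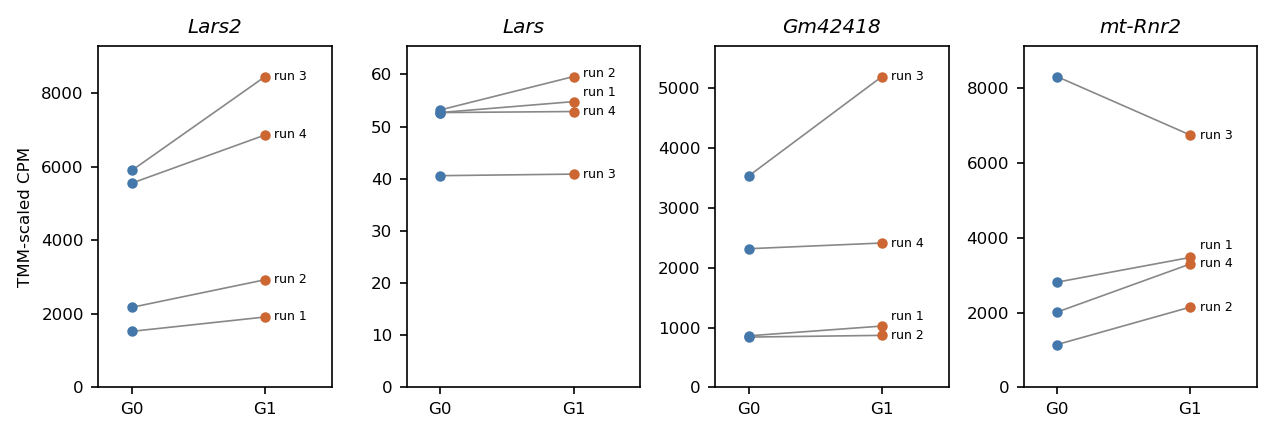
TMM-scaled CPM in G0 and G1 of each run, joined by lines, for Lars2, its cytosolic partner Lars, Gm42418 and mt-Rnr2, each on its own linear axis from 0. Lars2 is higher in G1 in all 4 runs and highest in run 3 (5893 and 8444 CPM), where Lars is lowest (40.6 and 40.9 CPM).

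More members differed between runs than between phases. A test of the run terms, added after the data were seen, called 14 of 38 members (36.8%) against 35.6% of all genes, so the family's share was near that of all genes. The test treats the G0 and G1 library of a run as its replicates. Most of these calls were lost without run 3: 3 of 38 (7.89%) were called against 14.6% of all genes. Of the 14, 7 were higher and 7 lower in run 3 than the mean of the other runs. Markers of other cell types moved with run 3 too: the summed level of 7 fibroblast markers was 884 CPM in G0 and 603 in G1 of run 3 and 207 to 443 in the other libraries, and that of 10 luminal markers was 2153 and 1905 CPM against 1014 to 1659. Their part in the run 3 values was not tested.

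The genes higher in run 3 were Aimp2 (log2 difference 1.13, edgeR adjusted p for runs = 2.06e-06), Lars2 (1.04, 3.08e-11), the tyrosine pair Yars (0.94, 2.65e-05) and Yars2 (0.76, 0.00103), Nars (0.55, 0.011), Cars (0.49, 0.000118) and Sars (0.48, 0.015). The p-values are for any difference among runs, not for run 3 alone. For Cars, the run means were 37.9, 76.0, 83.8 and 64.7 CPM, so run 1 stood lowest and run 3 was near run 2. Lars2 was high in run 4 as well. Yars had 58.7, 73.6, 136 and 64.9 CPM in G0 and 50.7, 73.5, 124 and 84.3 CPM in G1. Both run 3 libraries were above all others, and C77080, which overlaps Yars on the opposite strand, had 21.8 and 22.9 CPM in run 3 and 15.7 to 26.3 CPM in the others. Eif2ak1, which overlaps Aimp2 on the opposite strand and encodes a kinase of the integrated stress response, was itself higher in run 3 by 0.67 (edgeR adjusted p for runs = 0.00242).

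The genes lower in run 3 were Rars2 (log2 difference -1.27, edgeR adjusted p for runs = 0.000307), Tars2 (-0.95, 0.00315), Dars (-0.87, 0.00027), Nars2 (-0.70, 0.0493), Wars (-0.67, 0.00479), Farsb (-0.53, 0.00905) and Qars (-0.52, 0.0354). For asparagine, the cytosolic gene Nars was higher and the mitochondrial gene Nars2 lower in run 3, and the ratio of Nars to Nars2 reached 60.6 against a median of 22.9 over libraries. Wars, which interferon gamma is known to induce, had 44.7 and 54.6 CPM in G0 and G1 of run 3 and 65.0 to 84.8 CPM elsewhere.

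**Figure D5:**
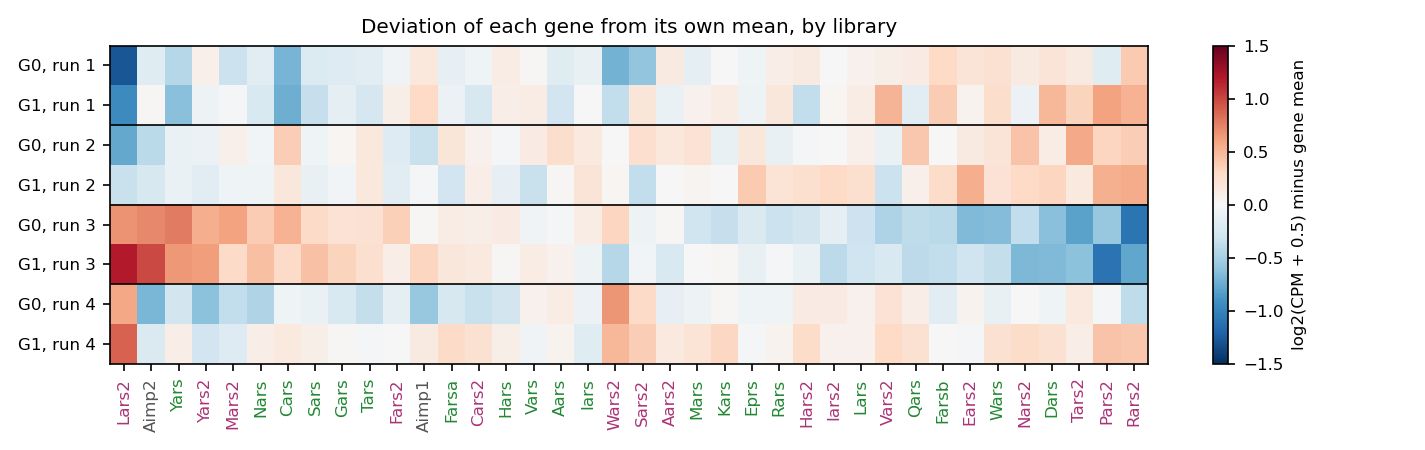
Deviation of each gene in each library from its own mean over 8 libraries, as log2(CPM + 0.5), red above and blue below the mean, with genes ordered by their run 3 value and libraries grouped by run. The G0 and G1 rows of a run look alike for most genes, and run 3 is red at the left, from Lars2 on, and blue at the right, to Rars2. The deepest blue is Lars2 in G0 of run 1 (1523 CPM).

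Genes of the ATF4 response also differed by run. Of 26 amino acid response genes tested, 22 differed between runs against 35.6% of all genes, and 22 were higher in run 3, with a median log2 difference of 0.91 against -0.04 over all genes. These were not the same 22 genes. Slc7a5 (-0.84, edgeR adjusted p for runs = 9.11e-05) and Aldh18a1 (-0.07, 0.0151) differed between runs but were lower in run 3. Asns (-0.19) and Pycr1 (-0.20) were also lower in run 3 and were not called between runs. Mean Atf4 was 401, 471, 838 and 653 CPM in runs 1 to 4. The 5 synthetase genes whose promoters hold TGATGNAA differed in how far run 3 stood above the other runs. The log2 differences were 0.01 (Aars), 0.02 (Iars), 0.31 (Tars), 0.36 (Gars) and 0.94 (Yars), and only Yars was called between runs. Gars had run means of 63.4, 70.8, 86.1 and 66.0 CPM, whereas Aars had 109, 142, 130 and 136 CPM, in which run 1 was low and run 3 did not lead. Between the phases, the 5 genes had a blocked median of 0.00.

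Between G1 and G0, the amino acid response list held 0 genes called higher and 1 called lower of 26, against 0.481% and 0.764% of all genes, with a blocked median of 0.13 against 0.01. The gene was Ddit4, an inhibitor of mTORC1 signalling, which fell by 1.01 ± 0.22 on the log2 scale (edgeR with the run block, adjusted p = 0.0142), from 21.4 ± 13.1 CPM in G0 to 10.6 ± 6.65 in G1 (SD, n = 4), and was lower in 4 of 4 runs. Psat1 and Phgdh, enzymes of serine synthesis, were higher in G1 in 4 of 4 runs without being called (1.02 ± 0.27 and 0.48 ± 0.14, edgeR adjusted p = 0.0822 and 0.116). Nupr1, a stress-induced regulator, had a difference of 0.45 ± 0.15 (edgeR adjusted p = 0.180).

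Of the 9 tested genes that sense uncharged transfer RNA or act on eIF2, 0 were called, against 0.481% of all genes higher and 0.764% lower. The blocked median was -0.10 against 0.01 over all genes. Eif2ak4, which encodes GCN2, had a log2 difference of -0.27 ± 0.16 (edgeR adjusted p = 0.528). Its partner in this list, the GCN2 inhibitor Impact, had -0.31 ± 0.17 (edgeR adjusted p = 0.463), and Eif2s1, which encodes the alpha subunit of eIF2, had 0.22 ± 0.12 (edgeR adjusted p = 0.475). Of 15 other genes of transfer RNA charging, 0 were called, against the same 0.481% and 0.764% of all genes, with a blocked median of 0.13. The largest estimates there were those of Prorsd1 (0.37 ± 0.16, edgeR adjusted p = 0.325) and of Mtfmt, the formyltransferase of the mitochondrial initiator (0.37 ± 0.18, edgeR adjusted p = 0.393). The 4 G1 libraries of Prorsd1 all lay above its 4 G0 libraries, as held for 0.829% of all genes. Trnt1, which adds the CCA end to transfer RNA, had 0.22 ± 0.13 (edgeR adjusted p = 0.539).

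A list of 12 translation factors that act after charging (cytosolic and mitochondrial elongation factors, mitochondrial initiation factors and the release factor Mtrf1l) held no call, against 0.481% of all genes called higher. All 12 had a blocked log2 difference above 0, as did 7770 of the 15192 genes tested, and the median was 0.21 against 0.01. Of the 12, 6 were higher in all 4 runs, against 11.3% of all genes. Mtif2, the mitochondrial initiation factor 2, had 0.53 ± 0.18 (edgeR adjusted p = 0.193) and Mtif3 0.38 ± 0.14 (edgeR adjusted p = 0.225). The cytosolic exchange factor subunits Eef1d and Eef1b2 had 0.31 ± 0.11 and 0.30 ± 0.11 (edgeR adjusted p = 0.217 and 0.235). Run 4 had the largest median ratio of the 12, 0.47, against 0.08 to 0.27 in the other runs.

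Wars was set beside 17 interferon-induced genes, of which 0 were called higher and 2 lower in G1, against 0.481% and 0.764% of all genes. These were Ifit2 (-1.61 ± 0.31, edgeR with the run block, adjusted p = 0.00469) and Rsad2 (-1.30 ± 0.33, adjusted p = 0.0451 in edgeR with the run block), both antiviral effectors. Cxcl10 (-0.62 ± 0.20, edgeR adjusted p = 0.162) and Usp18 (-0.85 ± 0.34, edgeR adjusted p = 0.275) were lower in 4 of 4 runs and not called, although Usp18 differed by only -0.01 in run 4. Wars was higher in G1 in 4 of 4 runs, with log2 ratios of 0.04, 0.02, 0.29 and 0.34, whereas all 17 interferon genes had a blocked difference below 0, from -1.61 to -0.02. Some of these lay within their error of 0, among them Irf1 (-0.02 ± 0.10), Gbp2 (-0.02 ± 0.12) and Oasl2 (-0.02 ± 0.17). The contrast with Wars did not hold in every setting. With phase alone 6 of the 17 were above 0. In run 4, where the ratio of Wars was largest, 10 of 17 were higher in G1 with a median of 0.14. The summed level of 8 immune markers was 358 and 377 CPM in G0 and G1 of run 4 and 41.0 to 97.7 CPM in the other libraries, and its part in these values was not tested.

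Some values could be shared with other sequence. Iars shares 1656 nt at 96.0% identity with the processed pseudogene Gm4849, which reached 1.43 CPM, and Aimp1 shares 338 nt at 91.4% with Gm12438, which reached 0.357 CPM. Of the 38 members, 12 overlap a protein-coding gene on the opposite strand and 1, Aars, overlaps one on the same strand. Hars and Hars2, whose starts overlap head to head, are one such case.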

How the data were processed

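RNA of sorted G0 and G1 mammary basal cells was sequenced in 8 libraries, 4 per phase. The deposited table holds unnormalized counts for each Ensembl ID. Trimmomatic 0.35, STAR 2.5.2a and mm10 are named per the submitters' processing notes. The program and strand setting of the counting, and its annotation, were not given in the sources used here. Of 54837 IDs, 54722 matched a GENCODE M21 symbol and 115 did not.

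Counts were scaled by TMM and tested with edgeR 4.0.16 in R 4.3.3 (quasi-likelihood, robust, two-sided). Low counts were removed with filterByExpr by phase, which left 15192 genes, and p-values were adjusted over all of them by Benjamini-Hochberg at 0.05. The model held phase alone, and the alternative added the run as a block. Standard errors came from the log2 fold change divided by the root of its F statistic. Ratios within runs used a prior count of 2. Sequences and promoter windows came from RefSeq tables on GRCm38.p6, and gene positions from GENCODE M21 on GRCm38, counted from 1. Scripts were tested on simulated data.

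Titles give the phases the same run numbers. Deviations from the phase means correlated at 0.668, 0.470, 0.638 and 0.437 within runs 1 to 4 and at most 0.0971 between runs, so the numbers were taken to pair the libraries. No library was a copy of another, and 0 columns were left unused.

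Members, gene lists and tests were chosen with earlier results of these data known. Named members were the 8 smallest p in each model, the 3 highest and 3 lowest levels per length in each set with their partners, Gars, Kars, Aimp1, Aimp2 and Wars, and the 4 smallest blocked p of each other list; others named were chosen after their values were seen. Alternatives were RLE scaling, other count filters, DESeq2 1.42.0, limma-voom (limma 3.58.1), the block and libraries or runs left out.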

Additional observations from a re-analysis of the deposited data

Results flagged for a closer look

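In 7 of 76 groups of 4 libraries (38 genes in each phase), 1 library stood far from the other 3, with a gap above the 95% limit of Dixon's test for 4 values. Chance gives about 1 in 20 for independent values, and genes measured in the same libraries are not independent. The share over all genes tested was not computed, so the count cannot be read as particular to these genes. Of the 7, 5 were libraries of run 3. In G1 of run 3, Aimp2 stood high at 143 CPM (60.6 to 72.3 in the others), and 3 genes stood low: Rars2 at 8.47 CPM (19.9 to 22.1), Wars at 54.6 CPM (81.5 to 84.8) and Pars2 at 0.919 CPM (3.59 to 4.11), the last from 9 reads. In G0 of run 3, Lars was low at 40.6 CPM against 52.7 to 53.2. In G1 of run 2, Eprs was high at 318 CPM against 225 to 239, and in G1 of run 1, Aars was low at 105 CPM against 130 to 134.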

How the results depend on the processing

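With the run as a replicate block, 189 genes were called (73 higher and 116 lower in G1) against 0 with phase alone. The block gave 197 with RLE (74 and 123), 233 with DESeq2 (97 and 136), 197 with limma-voom (63 and 134), 310 with no low-count filter (126 and 184), 145 with at least 10 counts in all libraries (53 and 92), and 274, 153, 217 and 97 without runs 1, 2, 3 and 4. With phase alone, DESeq2 called 34 (10 and 24) and dropping the low-count filter gave 87 (14 and 73). The 1 synthetase called with the block, Lars2, was also the 1 called with the block and RLE, DESeq2, limma-voom, no filter or at least 10 counts, with adjusted p of 0.00378 to 0.0403, and 0 were called when any 1 run was left out or in any fit with phase alone. The cytosolic median stayed between -0.02 and 0.12 in all 24 alternatives. The mitochondrial median was 0.11 without the G0 library of run 2, 0.01 to 0.11 over the libraries left out and -0.03 to 0.11 over all 24 alternatives, with the values below 0 being those without run 4 (-0.03 with the block and -0.02 with phase alone). With phase alone, leaving out 1 library turned the sign for Aimp2, at -0.11 without the G1 library of run 3 (highest 0.65), and for Wars, at -0.0022 without the G0 library of run 3 (highest 0.29); the cause was not tested. Members that differed between runs numbered 3 without run 3 and up to 17 otherwise. The block changed no other member's call. The block with no filter and with at least 10 counts, the fit without both run 4 libraries (0 called) and the run test were added after the data were seen. Counts limit Pars2, with 9 to 58 reads per library.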
